A study of Mus musculus with 5 samples.

Results

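Atoh8, Sox9 and Klf5 are 3 transcription factor genes that help to set or keep cell lineages. They were compared between NIH3T3 mouse fibroblasts made to express human ERBB2 and the parental NIH3T3 line. The genes were chosen by name from earlier results on the same contrast, and every probe that the platform annotation assigns to 1 of these symbols alone was taken. This gave 3 genes, each with 1 probe, out of 9669 genes and 20205 probes in all. Their log2 ratios between the cell lines chose them and are therefore given below as descriptions, with no test.

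The Erbb2-transfected cells constitutively overexpress human HER-2/NEU (ERBB2), a receptor tyrosine kinase, from a cytomegalovirus promoter. The reference was untransfected NIH3T3, an immortalised mouse fibroblast line. Both were kept in serum-supplemented medium, and no drug or ligand is mentioned in the labels. The sources used here do not say whether the transfected line is a single clone, so the effect of the transgene and that of a clone cannot be told apart. RNA of both lines was hybridised together, in different dyes, to each of 5 arrays of spotted cDNA. The labels name 3 arrays of preparation A (A1, A2 and A3) and 2 of preparation B (B1 and B2). Erbb2-transfected cDNA was in Cy5 on A3 and B2 and in Cy3 on A1, A2 and B1.

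Each value below is the log2 of the Erbb2-transfected signal divided by the NIH3T3 signal, so that -1 is a halving and 1 a doubling of relative signal. They carry no absolute level, and the levels of different genes cannot be compared from them. Cy5 was taken as the numerator of the deposited ratios because the labels list it as the first channel. That makes the direction likely but not settled, and under the opposite reading each sign below turns. No probe is annotated to Erbb2 alone, so the transgene could not be checked. The labelled fibroblast identity could not be checked either, since ratios do not show whether a marker is present. Of 12 fibroblast markers, 8 had a value. Col1a1 and Col1a2, of type I collagen, were lower in Erbb2-transfected cells by limma's test. The other 3 tested (Col3a1, Vim and S100a4) did not pass.

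Atoh8 belongs to the basic helix-loop-helix (bHLH) family, whose members bind E-box sequences as dimers. It is known from mouse and other vertebrates as a factor in the development of several organs and as a gene activated by bone morphogenetic protein (BMP) signalling. Sox9, of the SOX family, bends DNA through a high mobility group domain and is required for cartilage formation and testis development in the mouse. Klf5, of the Krüppel-like zinc finger family, binds GC-rich and CACCC sequences. It is known for its part in proliferating epithelium of the gut and in the response of smooth muscle to injury.

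Of the 3 genes, RefSeq's promoter table (build GRCm38.p6) held Atoh8. Its upstream sequence is shown because Atoh8 had the largest ratio of the 3 and itself encodes an E-box-binding family member. The 250 bases before the start, at chr6:72235578-72235827 on the minus strand, are printed 5′ to 3′ with E-boxes (CANNTG, a palindrome, so that both strands are covered) in capitals.
Atoh8: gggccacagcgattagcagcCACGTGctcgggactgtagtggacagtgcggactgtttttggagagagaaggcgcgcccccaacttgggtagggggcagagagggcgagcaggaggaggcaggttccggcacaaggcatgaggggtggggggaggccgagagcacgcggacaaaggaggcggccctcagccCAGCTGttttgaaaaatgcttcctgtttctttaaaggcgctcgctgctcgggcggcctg
The window has a GC content of 63.2%, against a median of 52.4% over the 32851 promoters of the table. It held 2 E-boxes, whose first bases lie 230 and 59 bases before the start, and 66.22% of all promoters held at least 1 in the same length. The GC box GGGCGG and the box CACCC, both sequences that Krüppel-like factors can bind, each occurred once on either strand (in 32.74% and 52.01% of all promoters). The SOX core ACAAT was not among its letters on either strand and was present in 27.66% of all promoters. These matches describe the letters only, and 203 of the 250 bases lie inside the annotated span of the gene, which reaches further upstream than this start.

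Atoh8 was far lower in Erbb2-transfected cells wherever it was measured. Its probe had log2 ratios of -4.69 on A2, -4.50 on A3, -4.21 on B1 and -4.27 on B2, and no value on A1. The 4 values span 0.477, and those of the 2 dye orientations overlapped. Among all probes with a value, Atoh8 was the 8th lowest of 11348 on A2, the 13th lowest of 7261 on A3, the 10th lowest of 17463 on B1 and the 18th lowest of 13109 on B2. The mean of the 2 preparations was -4.42 ± 0.25 (SD, n = 2), a 21.4-fold lower signal.

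Sox9 was higher in Erbb2-transfected cells on all 5 arrays. Its log2 ratios were 1.62 on A1, 1.71 on A2, 1.53 on A3, 2.41 on B1 and 1.97 on B2. The 3 arrays of preparation A lay below both arrays of preparation B. How many features separate in this way was not counted, and the difference did not pass the test given below (limma, adjusted p = 0.836). The preparation means averaged 1.90 ± 0.42 (SD, n = 2), a 3.72-fold higher signal. Sox9 was the 14th highest of 17463 probes on B1, where its ratio was largest, and the 18th highest of 13109 on B2. It was the 99th highest of 5368 on A1, the 118th of 11348 on A2 and the 68th of 7261 on A3, where the ratio was smallest.

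Klf5 was also higher on all 5 arrays, with 1 array apart. Its log2 ratios were 2.30 on A1, 2.28 on A2, 2.28 on A3, 0.97 on B1 and 2.01 on B2. The arrays of preparation A spanned 0.017, whereas B1 lay 1.04 below B2, the nearest of the others. On B1 Klf5 was the 598th highest of 17463 probes, and on the other arrays it was between the 17th and the 26th highest. The mean of the 2 preparations was 1.89 ± 0.56 (SD, n = 2), a 3.69-fold higher signal. Without B1, which leaves preparation B in Cy5 only, the mean was 2.14 ± 0.20.

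**Figure D1:**
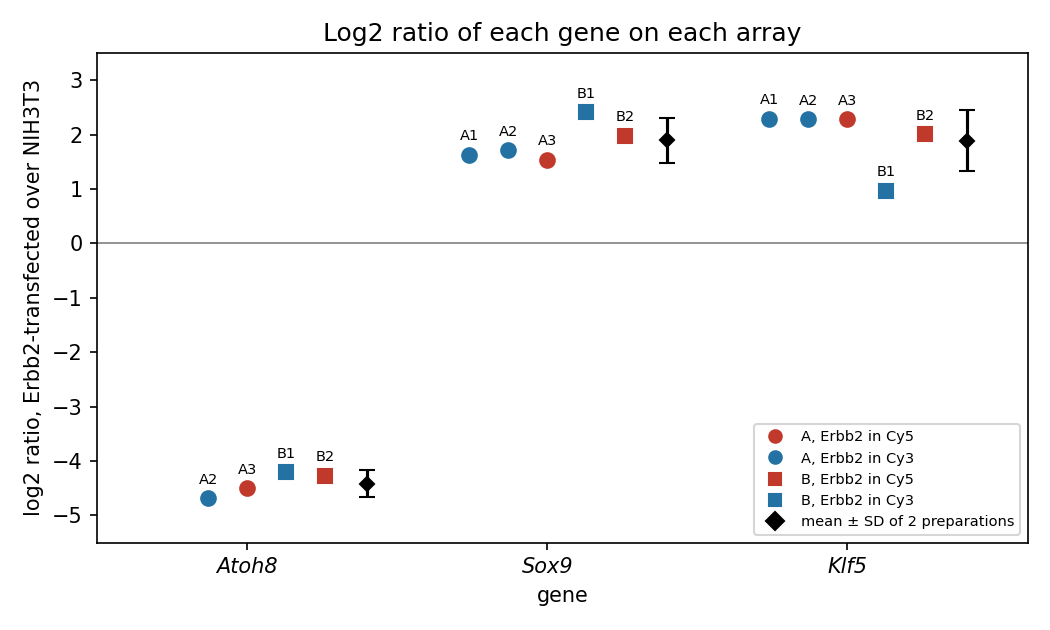
Log2 ratio (Erbb2-transfected over NIH3T3) for Atoh8, Sox9 and Klf5 on each array (circles, preparation A; squares, preparation B; colour, the dye of the Erbb2-transfected cDNA), with the mean ± SD of the 2 preparations as diamonds. Atoh8 lies between -4.69 and -4.21, Sox9 between 1.53 and 2.41, and Klf5 between 0.97 and 2.30, where B1 stands apart.

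The spread of the 3 genes over arrays differed. Among the 3134 genes with a value in both dye orientations of both preparations, the median range over arrays was 1.03. Atoh8 had a range of 0.477, and 8.58% of these genes had a smaller one. Sox9 had 0.874 and Klf5 1.33, with 37.5% and 71.1% of genes below them. Atoh8 was measured on 4 arrays and the others on 5, and more arrays can only widen a range.

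Whether the ratios depended on the dye was tested with limma on the 5 arrays, across 4892 features. The choice of the genes favoured small spread, so this test is not fully independent of it. At an adjusted p under 0.05, 0.143% of features had a dye effect (7 of 4892), and 12.9% had an unadjusted p under 0.05. With the Erbb2-transfected cDNA in Cy5 and in Cy3, Atoh8 averaged -4.38 and -4.45, Sox9 averaged 1.75 and 1.91, and Klf5 averaged 2.14 and 1.85. The differences, Cy5 minus Cy3, were 0.06 ± 0.40 for Atoh8, -0.16 ± 0.38 for Sox9 and 0.30 ± 0.44 for Klf5 (± SE). None of the 3 passed limma's test, with adjusted p = 0.963, 0.895 and 0.809.

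Sox9 and Klf5 differed between the preparations in opposite directions, but neither difference passed the test over all features. Preparation A averaged 1.60 and preparation B 2.19 for Sox9. For Klf5 the means were 2.28 in A and 1.49 in B. With the dye as a covariate, the difference A minus B was -0.61 ± 0.37 for Sox9 (SE; limma, adjusted p = 0.836) and 0.87 ± 0.39 for Klf5 (SE; limma, unadjusted p = 0.0412, adjusted p = 0.696). The Klf5 difference was 0.27 without B1, so it rested on that array. Atoh8 averaged -4.59 in A and -4.24 in B, a difference of -0.36 ± 0.41 (SE; limma, adjusted p = 0.961). Over all features, 0.0204% (1 of 4892) passed this test and 6.75% had an unadjusted p under 0.05. The labels do not say that A and B came from separate cultures, and the spread between them, on which the p-values in part rest, may be technical.

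The genes with the most similar ratios were sought by the root mean square difference from each gene over the arrays on which it was measured. For Atoh8, compared with 3106 genes over 4 arrays, the nearest was Fn1, the fibronectin gene, at a root mean square difference of 0.483. Fn1 had log2 ratios of -4.01, -4.72, -4.70 and -4.70 on A2, A3, B1 and B2. Fbln5, which encodes a fibulin of elastic fibres, followed at 0.853, and Col1a1 at 0.947. All 3 encode extracellular matrix proteins. Atoh8 had the 4th lowest mean of 3134 genes, so a search by size could return only other strongly lowered genes. Whether matrix genes are frequent among those was not tested.

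For Sox9, compared with 2006 genes over 5 arrays, the nearest were Ndrg1, Oaf and Fip1l1, at 0.567, 0.587 and 0.638. Ndrg1, a gene induced by stress and hypoxia, had ratios of 0.87, 1.23, 0.90, 1.96 and 1.52 on A1, A2, A3, B1 and B2. Like those of Sox9, its values on preparation B all lay above those on preparation A. Klf5 had a closer neighbour than the other 2 genes. Prkg2, a cGMP-dependent protein kinase, lay at 0.232 from it, with ratios of 1.93, 2.26, 2.34, 0.86 and 1.66 on the same arrays, and was likewise lowest on B1. Fip1l1, a subunit of the mRNA 3′ end processing machinery, and Cd44, the hyaluronan receptor, followed at 0.662 and 0.725. Sox9 itself was the 5th nearest gene to Klf5, at 0.826. With so few arrays these distances describe size as much as shape, and genes share the arrays and their noise. The nearest genes were chosen on these same arrays, so a pattern shared over them follows in part from the choice.

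**Figure D2:**
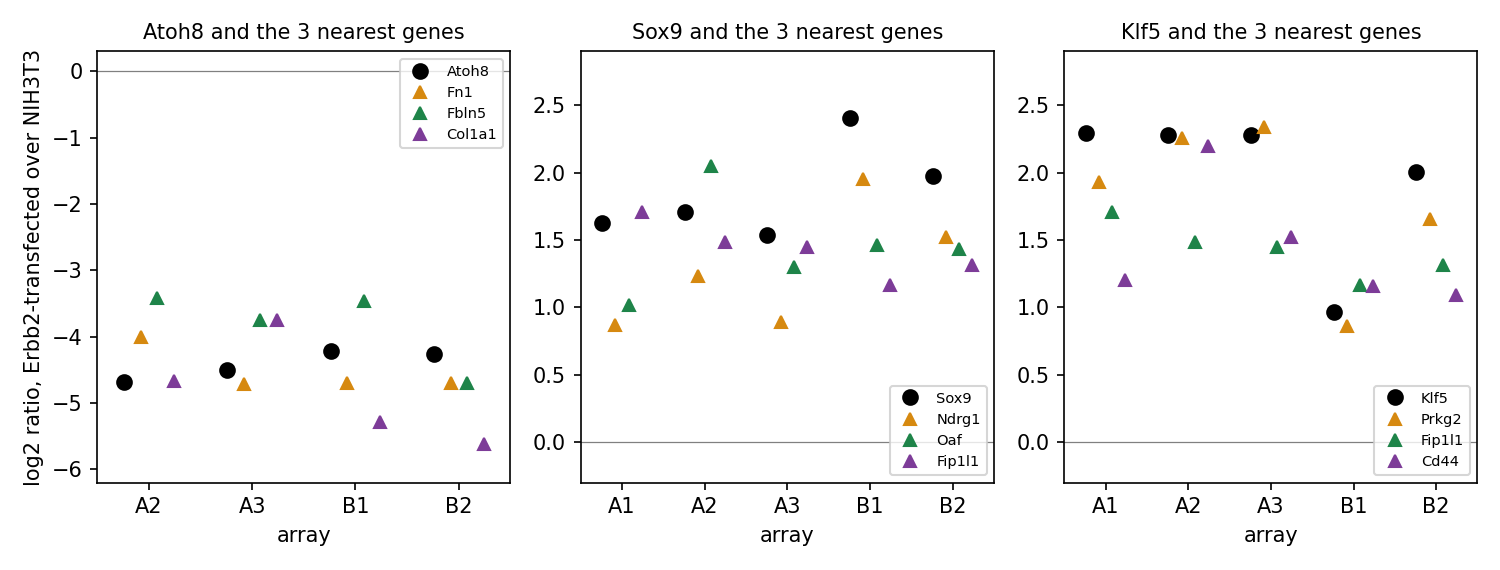
Log2 ratios (Erbb2-transfected over NIH3T3) on each array for Atoh8 (left), Sox9 (middle) and Klf5 (right), as circles, and for the 3 genes nearest to each, as triangles (the vertical scale of the left panel differs). Prkg2 follows Klf5 on B1, at 0.86 against 0.97, and Ndrg1 has its highest values on B1 and B2, as Sox9 does. The nearest genes were chosen for likeness on these same arrays.

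The tested relatives of the 3 genes had smaller ratios. Lists of family members and pathway genes were drawn up with earlier results of these data known, and their genes were tested with limma over all 4892 features, of which 6.79% passed at an adjusted p under 0.05 (2.25% higher and 4.54% lower). Of the 3134 tested genes 7.5% passed, 2.17% higher and 5.33% lower, and their median log2 ratio was -0.04. Of 42 further transcription factors tested in 5 lists, 1 rose and 3 fell (9.52%), with a median of -0.14 and values from -1.11 to 0.84. Atoh8, Sox9 and Klf5 lie outside that range, which reflects how they were chosen.

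In the SOX family, 4 of 19 further genes had a value and 1 was tested. That gene, Sox3, had 0.20, -0.80, -0.25, -0.72 and 0.25 on A1, A2, A3, B1 and B2, on both sides of 0, and did not pass. Sox6, which acts with Sox9 in cartilage, had -0.15 on B1 and 0.28 on B2 and no value on the arrays of preparation A. Of 25 Krüppel-like and SP genes, 10 had a value, 6 were tested and 0 passed by limma, with 1 lower at an unadjusted p under 0.05. The median of the 6 was -0.07. Of the 6 tested, Klf13 alone had 1 sign on all its arrays, at -0.97 on A2, -0.79 on A3, -0.19 on B1 and -1.05 on B2, and missed the threshold (adjusted p = 0.0536). Klf2, Klf7, Klf9, Klf16 and Sp1 had both signs. Klf6, outside the test, had 1.14 on B1 alone. Klf4, which is known to oppose Klf5 in gut epithelium, had -0.67 on A2 and 0.10 on B1.

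Of 21 tested bHLH genes, 1 rose, 3 fell and 17 did not pass, with a median of -0.21. Tfe3, a regulator of lysosomal genes, fell by 1.11 on the log2 scale (SD 0.01, n = 2; limma, adjusted p = 0.00823). That SD does not show the spread between dyes, with -1.42 and -1.69 on A3 and B2 (Cy5) against -0.79 and -0.55 on A2 and B1 (Cy3). Id3, which lacks a DNA-binding region, blocks other bHLH factors and is a BMP target, had -1.61, -1.93, -0.69, -1.25 and -0.35 on A1, A2, A3, B1 and B2 (mean -1.01 ± 0.31, limma adjusted p = 0.0166). It was below 0 on every array, less so where the Erbb2-transfected cDNA was in Cy5. Hif1a, the oxygen-regulated subunit, had -0.77 ± 0.09 (adjusted p = 0.0465) and Mesp1, a factor of early mesoderm, had 0.84 ± 0.10 (adjusted p = 0.0322). Hif1a was at -1.39 and -1.10 on A3 and B2 (Cy5) against -0.27 and -0.32 on A2 and B1 (Cy3). The calls depended on single arrays and on the scaling. Mesp1 (0.76 to 0.92), Hif1a (-0.97 to -0.49) and Tfe3 (-1.40 to -0.83) kept their sign but missed the threshold when an array was left out: Mesp1 and Hif1a without A3, B1 or B2, and Tfe3 without A3 or B2. Id3 (-1.28 to -0.79) was not called without B1. Leaving out A3, B1 or B2 left a preparation in a single dye orientation, so the dye no longer cancelled in its mean. Without A2, which alone gave preparation A a Cy3 value for Mesp1, Hif1a and Tfe3, these 3 could not be tested. Scaling the arrays to equal spread ended the calls of Mesp1 and Hif1a (limma, adjusted p = 0.0772 and 0.0942). Quantile normalization ended those of Mesp1, Hif1a and Id3 (adjusted p = 0.0669, 0.102 and 0.0518).

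**Figure D3:**
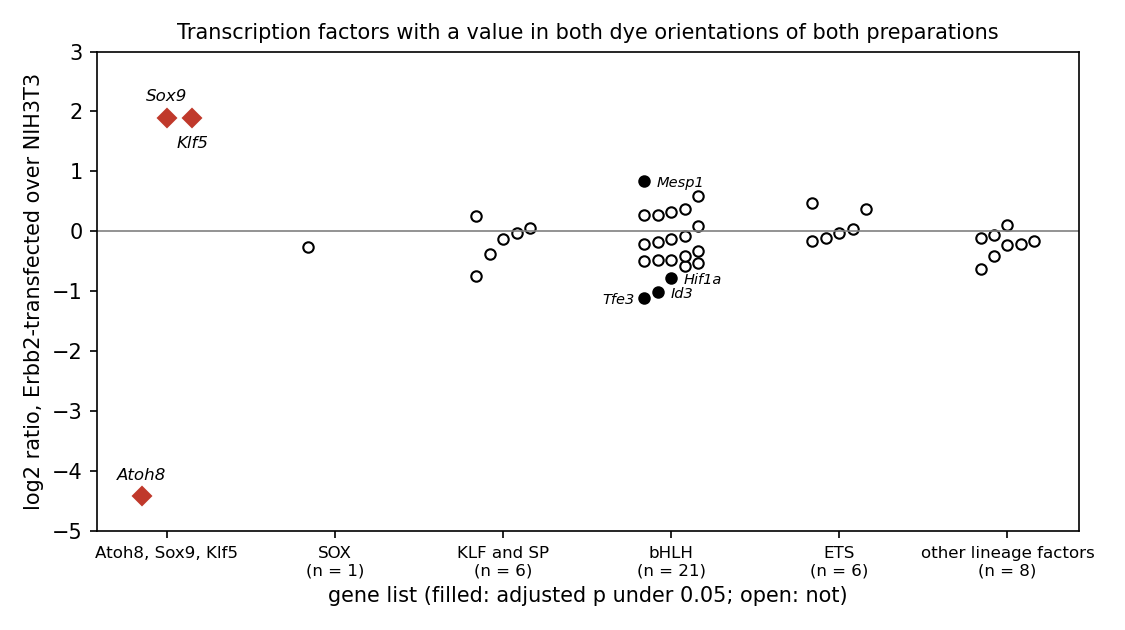
Mean log2 ratio of the 2 preparations, Erbb2-transfected over NIH3T3 cells, for Atoh8, Sox9 and Klf5 (diamonds, not tested) and for the tested genes of 5 lists of transcription factors (circles; filled, adjusted p under 0.05 by limma). The further transcription factors lie between -1.11 and 0.84.

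Among genes of BMP and SMAD signalling, which is known to activate Atoh8, 10 were tested. By limma 0 of the 10 rose (0 also at an unadjusted p under 0.05), 2 fell and 8 did not pass, with a median of 0.01. None of the 10 encodes a BMP ligand or a signalling BMP receptor. Tgfbr2, a receptor of transforming growth factor beta, had -0.31 on A2, -1.04 on A3, -1.09 on B1 and -2.25 on B2. Its mean was -1.17 ± 0.70 (limma, adjusted p = 0.0185). Within each preparation Tgfbr2 was lower where the Erbb2-transfected cDNA was in Cy5 (A3 and B2). It had no value on A1 and could not be tested without A2. Fstl1, a secreted binder of BMP ligands, had a mean of -0.82 ± 0.42 (adjusted p = 0.0497). Tgfbr2 (-1.46 to -0.88) was not called without A3 or B2, and leaving out A3, B1 or B2 ended the call of Fstl1 (-0.90 to -0.71). Each of these omissions left a preparation in a single dye orientation. Neither was called after scaling to equal spread (limma, adjusted p = 0.0924 for Tgfbr2 and 0.118 for Fstl1) or after quantile normalization (adjusted p = 0.0886 and 0.116). Smad4 and Smad5, mediators of the pathway, had 0.01 ± 0.22 and 0.23 ± 0.07 and did not pass. Outside the test, Smad1 had -0.25, -0.09, -0.56 and -0.95 on A1, A2, B1 and B2. Smad2 had -0.87 on B1 alone, and Smad3 had both signs. Also outside the test, Crim1 had -1.80 on B1 and -2.27 on B2. Rgma had -0.69, -0.84 and -0.31 on A3, B1 and B2, and Hjv had 0.77, 0.02 and 0.33 on A2, B1 and B2. Of 24 genes of the list with a value, 7 were below 0 on all their arrays, 4 above and 13 on both sides. Genes with a value on a single array are included. The same counts were not taken over all features. Of the Id genes that BMP signalling activates, Id3 was called lower, as given above. Id4 had 0.27 ± 0.34, which did not pass, and Id1 had -0.26 on B1 alone.

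The cartilage genes that Sox9 binds or activates could not be tested. Of 25 listed, 12 had a value, none of them in both dye orientations of both preparations. On all arrays with a value, 6 of the 12 lay below 0, 2 above, and 4 had both signs. These counts include Fmod (-0.33) and Prg4 (0.34), which had a value on B1 alone and so could show no second sign. The same counts were not taken over all features. Acan, the aggrecan gene, was below 0 on its 3 arrays, with -0.98 on A2, -1.35 on B1 and a further -1.12 on B2. Col9a3, a chain of type IX collagen, had -0.22 on A3, -0.22 on B1 and -0.31 on B2. Col2a1, the classic Sox9 target of cartilage, had -0.73 on B1 and 0.01 on B2.

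Of 20 genes reported as Klf5 targets, 5 were tested. All 5 had a mean above 0, with a median of 0.47, as did 1440 of all 3134 tested genes. By limma 0 passed, and 2 were higher at an unadjusted p under 0.05, a level at which the share of all genes was not counted. Of the 5 tested, only Birc5 kept its sign on all arrays, while Ccnd1, Cdk1, Fasn and Krt19 had both signs. Birc5, which encodes the mitotic regulator survivin, had 1.60, 1.88, 0.08, 0.50 and 0.74 on A1, A2, A3, B1 and B2 (mean 0.76 ± 0.20, limma adjusted p = 0.0508). Ccnd1, the cyclin D1 gene, had 2.28 and 1.51 on A1 and A2 but -0.45 on A3, 0.53 on B1 and a value near 0 on B2. Pdgfa, another reported target, had both signs. Krt14, a keratin of basal epithelium, was below 0 on its 3 arrays, at -0.56 on A2, -0.18 on B1 and -0.71 on B2. Krt5, also a keratin of basal epithelium, had 0.50 on B1 and 0.39 on B2, and Itgb2 had 0.38 on B1 alone. Of 10 genes of the list with a value, 1 was below 0 on all its arrays, 3 above and 6 on both sides. The same counts were not taken over all features.

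Of 6 tested ETS genes 0 passed by limma, and 0 had an unadjusted p under 0.05. Of 8 other lineage factors tested 0 passed by limma, and 1, Tcf7l2 at -0.62 ± 0.50, was lower at an unadjusted p under 0.05. The lists had medians of 0.00 and -0.18. Ets2, outside the test, was at -1.77 on A2, at -0.73 on B1 and at -0.78 on B2. Etv4, a factor induced by ERK signalling, had 1.00 on A2, 0.25 on A3, 0.06 on B1 and 0.15 on B2 and did not pass. Foxo1 and Snai1, also outside the test, were below 0 on 3 arrays each, from -1.24 to -0.49 and from -0.91 to -0.46. Runx1, a lineage factor of blood and skeleton, had 0.10 ± 0.24 and Srf had -0.21 ± 0.94.

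Markers of other cell types gave few values. In epithelium 8 of 12 markers had a value, and the 1 tested, Krt19, had 0.19 ± 0.13. Of 8 epithelial markers with a value, 4 were below 0 on all their arrays, 1 above and 3 on both sides. Those below 0 include Krt7 (-0.31) and Cldn4 (-0.01), which had a value on B1 alone. The same counts were not taken over all features. Flt1 (endothelium) and Tnnt3 (skeletal muscle) had 0.16 ± 0.17 and 0.21 ± 0.06, and none of these 3 passed. The 3 leukocyte and 3 adipocyte markers with a value were not tested. The part of other cell types in the ratios of Sox9 and Klf5 was not tested.

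Quantile normalization of the arrays moved all 3 genes by more than 1.5-fold, with the same signs. It gave -3.70 ± 0.13 for Atoh8, 2.69 ± 1.39 for Sox9 and 2.56 ± 0.27 for Klf5 (± SD of the preparations). For Sox9 the preparations thus lay further apart than before it, where the SD was 0.42. Each gene rests on a single probe, so no second probe could be set beside it.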

How the data were processed

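RNA of Erbb2-transfected and parental NIH3T3 cells was measured on 5 two-colour cDNA arrays. Per the labels, slides were read on a GenePix scanner, and the authors subtracted background from mean spot intensities and scaled each array to a median ratio of 1. The deposited values are log2 ratios: between 11.3% and 49.8% of values per array lay, to within 6e-07, at the array's most frequent value plus log2(p/q) with p and q whole and at most 300, against 1.96% to 2.48% under a natural logarithm. Arrays of opposite dye orientation correlated between -0.54 and -0.17 as deposited, so values of the 3 arrays with Erbb2 cDNA in Cy3 were turned. The sources used here do not give the rule for empty values. Arrays held 5368 (A1) to 17463 (B1) probes with a value, and their number limits the precision.

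Probes of 1 symbol were averaged to genes. For each preparation, arrays of one orientation were averaged, then the orientations, and the 2 preparation means were tested against 0 with limma 3.58.1 (R 4.3.3, 10.2 prior and 1 residual degree of freedom), Benjamini-Hochberg adjusted over 4892 features, threshold 0.05. Dye and preparation effects were fitted on 5 arrays, which treats arrays of 1 preparation as independent. The members and lists were chosen with earlier results of these data known. Named list genes are those called or, where none was, up to 2 with 1 sign on at least 3 arrays and the largest mean; further relatives and pathway genes were picked with their values in view. For likeness, 3 genes per member are named. The procedures were tested on simulated data. Promoters are RefSeq's. Figures were drawn with matplotlib 3.10.9.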

Additional observations from a re-analysis of the deposited data

Results flagged for a closer look

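In 5 of 41 named genes examined, each with 4 or 5 values, 1 array stood apart from the other arrays. By chance this happens in about 5% of cases for unselected genes with normally distributed values. These genes share the arrays and were partly chosen on their values, so their share cannot be set against that rate. Klf5 had 0.97 on B1 against 2.01 to 2.30 on the other arrays. Its nearest gene Prkg2 was also lowest on B1, at 0.86, but it was chosen for likeness to Klf5 on these same arrays. Fn1, the nearest gene to Atoh8, had -4.01 on A2 against -4.72 to -4.61 on the others. Flt1 did not pass the test, and its value of 0.53 on A2 lay above the 0.01 to 0.07 of the other arrays. Klf9 had -0.70 on A1 against 0.26 to 0.49 on the others, and did not pass. Tcf7l2 had -1.58 on B2 against -0.39 to -0.15 on the others.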

How the results depend on the processing

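The ratios of Atoh8, Sox9 and Klf5 kept their sign under every alternative run. Leaving out 1 array gave -4.46 to -4.40 for Atoh8, 1.79 to 2.00 for Sox9 and 1.63 to 2.14 for Klf5; without A2, Atoh8 had no value in 1 orientation of preparation A. Quantile normalization gave -3.70 ± 0.13, 2.69 ± 1.39 and 2.56 ± 0.27 (± SD of the preparations). Scaling, centring and a plain mean of arrays moved each by less than its SD in the main run. With 1 probe per gene, the summary of probes could not matter.

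Of all features, 332 were called, 110 higher and 222 lower. The counts were 124 (30 and 94) after scaling to equal spread, 136 (46 and 90) after quantile normalization, 544 (210 and 334) with probes as features and 548 (222 higher) at a threshold of 0.1. With 5 arrays and a dye term 170 were higher. Leaving out 1 array gave 198 to 498 (41 to 192 higher and 113 to 306 lower). Without A3, B1 or B2 a preparation had a single dye orientation, so the dye no longer cancelled in its mean. Of the list genes, 1 was called higher and 5 lower: 0 and 2 after scaling, 0 and 1 after quantile normalization, 2 higher with the dye term and 2 higher at the threshold of 0.1. Without 1 array the counts were 0 to 2 higher and 1 to 8 lower. Dye effects were called for 1 to 27 features without 1 array, and preparation differences for 1 to 25; Sox9 and Klf5 were never among them. Atoh8 was not either where it could be fitted, which for the dye was not without A2 and for the preparation only without A1. The causes were not tested.

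The repetition number as a replicate block was added after seeing the data. The labels do not say what it marks, and deviations from the preparation mean correlated at 0.03 for A1 and B1 and at -0.37 for A2 and B2. With the dye term it leaves 1 residual degree of freedom, and 2872 features with all 5 values, Atoh8 not among them, were fitted. The replicate block gave 37 calls (7 higher, 30 lower), against 351 for the same features without it. Of 33 list genes, 0 were called by limma in either direction, and 1 was higher and 5 lower at an unadjusted p under 0.05. It gave 0 dye effects by limma (305 at an unadjusted p under 0.05). For the preparation difference no residual degree of freedom is left.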
